A study of Caenorhabditis elegans with 18 samples.

Results

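A set of 9 genes was followed that encode saposin-like proteins (*spp-1*, *spp-2*, *spp-3*, *spp-5*, *spp-8* and *spp-18*) or invertebrate-type lysozymes (*ilys-2*, *ilys-3* and *ilys-5*). They were picked by symbol, after their changes against the solvent on these same arrays had been seen, so everything said of them against DMSO is a description and carries no test. They are 9 of 18217 genes that the platform annotation names on the array, and 12 of 22548 probe sets carry their symbols. The arrays hold RNA of whole wild-type N2 *Caenorhabditis elegans*, grown for 56 h at 22°C on *E. coli* OP50 to young adults and then held for 8 h in liquid S Basal with OP50, at 6000 worms in a well. Worms were exposed to LK32, LK34, LK35, LK38 or LK56, synthetic small molecules at 100 µM, or to an equal amount of the solvent DMSO. Each of the 6 conditions was measured on 3 arrays, named A, B and C here, with every compound set against the same 3 DMSO arrays. No source used here says more of the replicates than that they were triplicates, so the errors describe the spread between these samples, which may be technical.

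Saposin-like proteins of *C. elegans*, also called caenopores, share a fold of helices held by disulfide bonds with the amoebapores of amoebae and the granulysin of human lymphocytes. Several of them open pores in bacterial membranes, and the best known, SPP-1 and SPP-5, kill *E. coli* and act in the intestine, where bacteria are both food and threat. Invertebrate-type lysozymes cut the peptidoglycan of bacterial walls, and ILYS-3 helps to break down ingested bacteria in the pharynx and intestine. Both families belong to the secreted equipment with which the worm digests and restrains the bacteria it eats.

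Of the 12 probe sets, 10 name 1 gene each and 2 are shared. One is annotated to *spp-2* and *spp-3* together (181152_at) and one to *spp-5* together with T08A9.13 (181046_s_at), so the signal of these genes cannot be separated. *ilys-5* has 3 probe sets, *spp-1* and *spp-8* have 2 each, and *spp-18*, *ilys-2* and *ilys-3* have 1. The second probe set of *spp-1* (178179_at) lay at the lowest intensity of the table, 4.605, on 17 of 18 arrays and at 4.63 on LK56 C, and it says nothing on the level of the gene. The other 11 were above this floor on every array. By the order of genes in the RefSeq annotation, *spp-3* and *spp-2* are neighbors on chromosome X, followed by *spp-6*, *spp-4*, *spp-5* and T08A9.13, and *ilys-3* and *ilys-2* are neighbors on chromosome IV, followed by *ilys-1*.

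Values are intensities on a linear scale that the authors summarized with GCRMA. An intensity depends on the probes as well as on the transcript, so no gene's level was set against that of another. Between 46.3% and 49.4% of each array's values are at the floor. The mean correlation of an array with the others of its group ran from 0.9537 to 0.986 over the 9033 brighter probe sets, those with a log2 intensity over 5 on 3 arrays or more, and was lowest for LK32 C, LK35 A and LK38 C. Changes are differences of mean log2 intensity, compound minus DMSO, with the SE of a limma fit over all 18 arrays. "Called" means a Benjamini-Hochberg adjusted p under 0.05 over all probe sets and a change of at least 2-fold. The median change of the brighter probe sets was 0.12 under LK32, 0.06 under LK34, 0.04 under LK35, 0.05 under LK38 and 0.235 under LK56, and the changes of the last compound are to be read beside that shift.

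*spp-1*, *spp-18*, *spp-8* and *ilys-5* had a lower intensity with LK34, LK35 and LK38 on all 9 arrays than on any array with LK32, LK56 or DMSO, in each of their 7 probe sets above the floor. *spp-1* (178149_s_at), the gene of a pore-forming caenopore, had intensities of 5387, 5124 and 3551 with LK34, 3227, 5464 and 3668 with LK35, and 3973, 3195 and 2630.4 with LK38. They were 10811, 10438 and 12463 with LK32, and 8297, 9797 and 9323 with LK56, against 9577, 10168 and 9205 with DMSO. The highest of the 9 arrays with LK34, LK35 and LK38 was 5464, and the lowest of the 9 others was 8297. The changes of *spp-1* were 0.22 under LK32, -1.06 under LK34, -1.26 under LK35, -1.58 under LK38 and -0.08 under LK56 (log2, SE 0.21), or 2.09-, 2.40- and 2.99-fold lower with LK34, LK35 and LK38. The call with LK34 ended without LK34 C (-0.88), while with LK35 and LK38 the change stayed between -1.11 and -1.73 with any single array left out and the calls remained in all 18 such fits. In order of the mean, LK34, LK35 and LK38 overlapped with each other, as did LK56 and DMSO, and LK32 stood above DMSO on every array (0.02 after centering each array on its median).

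*spp-18* (179424_at), a further saposin-like gene, read 2276, 1655 and 1652 with LK34, 2267, 2806 and 2172 with LK35, and 3801, 2849.7 and 1973 with LK38. It read 6254, 6217 and 6439 with LK32, and 6367, 7557 and 7168 with LK56, against 4975, 6159 and 5799 with DMSO. Here the order among the 3 compounds was the reverse of that of *spp-1*, with the lowest mean under LK34 (1861 ± 359.9) and the highest under LK38 (2874 ± 914; mean ± SD, n = 3 each), although the arrays overlap from LK34 to LK35 and from LK35 to LK38. The change was 0.16 under LK32, -1.61 under LK34, -1.23 under LK35, -1.02 under LK38 and 0.32 under LK56 (SE 0.20). The call with LK38 ended without LK38 C (-0.77), DMSO B (-0.95) or DMSO C (-1.0), and those with LK34 and LK35 remained whichever single array was left out. With LK56 and LK32 every array lay above the 3 DMSO arrays, a difference that shrank after centering each array on its median (-0.03 with LK32 and 0.03 with LK56).

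*spp-8*, for which no role is given here, was measured by 2 probe sets that gave nearly the same changes. On 185773_at the intensities were 3747, 3711 and 2073 with LK34, 1565, 3662 and 2239 with LK35, and 4044, 3447 and 1646 with LK38. They were 7554, 8282 and 10623 with LK32, and 6886, 8174 and 8237 with LK56, against 7069, 4876 and 6849 with DMSO. The LK35 and LK38 arrays spread widely, 2.34- and 2.46-fold between lowest and highest, and the lowest readings were those of LK35 A, LK38 C and LK34 C. On 185774_s_at they were 5151, 5402 and 3898 with LK34, 2676, 6282 and 3308 with LK35, and 6806, 4999 and 2542 with LK38. They were 12506, 11384 and 13095 with LK32, and 11801, 11371 and 11247 with LK56, against 9699, 8565 and 10796 with DMSO. Changes were 0.50 under LK32, -1.01 under LK34, -1.40 under LK35, -1.12 under LK38 and 0.32 under LK56 for the first (SE 0.37) and 0.35 under LK32, -1.02 under LK34, -1.34 under LK35, -1.12 under LK38 and 0.25 under LK56 for the second (SE 0.34). The single call, of 185774_s_at with LK35, was marginal and ended in 15 of the 18 fits that left out 1 array, remaining only without LK35 B, LK38 A or LK38 C (values from -1.08, without LK35 A, to -1.70, without LK35 B).

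**Figure D1:**
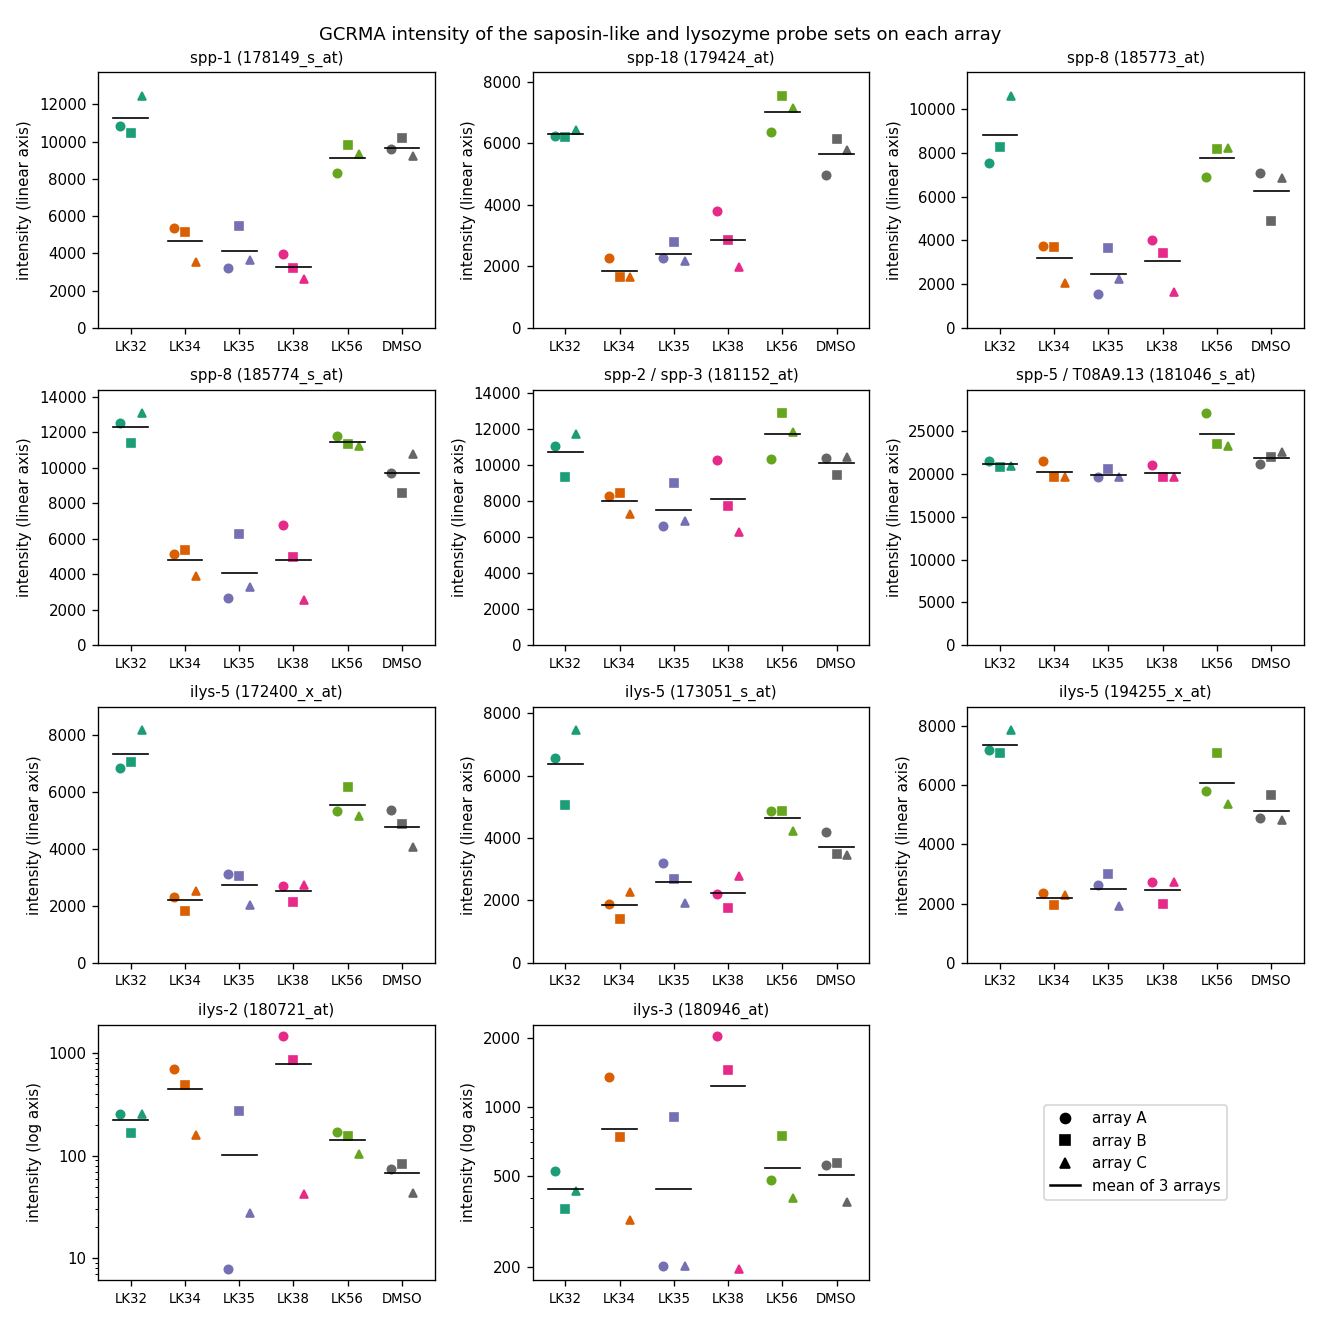
GCRMA intensity on each array (y axis; linear, or log where stated) for 11 probe sets of the saposin-like and lysozyme genes, by condition (x axis), with arrays A, B and C as circle, square and triangle and a line at the mean of the 3 arrays. For spp-1, spp-18, spp-8 and ilys-5 the 9 arrays with LK34, LK35 and LK38 lie below the 9 others, while for ilys-2 and ilys-3 the arrays of these compounds spread above and below the DMSO arrays.

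The remaining saposin-like genes were close to DMSO. The probe set shared by *spp-2* and *spp-3* read 8288, 8444 and 7269 with LK34, 6602, 9017 and 6894 with LK35, and 10281, 7751 and 6294 with LK38. It read 11039.5, 9321 and 11734 with LK32, and 10349.7, 12879.9 and 11856 with LK56, against 10404, 9435 and 10459 with DMSO. LK38 A lay inside the DMSO range and LK38 C was the lowest of all 18 arrays, and the changes were 0.08 under LK32, -0.34 under LK34, -0.44 under LK35, -0.34 under LK38 and 0.21 under LK56 (SE 0.17), none of them called. All LK34 and LK35 arrays lay below the 3 DMSO arrays.

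*spp-5*, whose product also kills *E. coli*, shares its probe set with T08A9.13, and this set read 21541, 19570.3 and 19570.3 with LK34, 19570.3, 20499.6 and 19570.3 with LK35, and 20982, 19570.3 and 19570.3 with LK38. It read 21536, 20801 and 20948 with LK32, and 27080.5, 23487 and 23228 with LK56, against 21117, 21916 and 22527 with DMSO. The single value 19570.3 appears on 6 arrays, LK34 B and C, LK35 A and C, and LK38 B and C, and no other probe set holds it, although 126 to 153 probe sets of an array are brighter. Such repeats are common in this table, where 5180 of the 12354 probe sets above the floor on at least 3 arrays (41.9%) hold 1 value on 3 arrays or more, and among the 11 described here this is the only one. The changes, -0.05 under LK32, -0.11 under LK34, -0.14 under LK35, -0.13 under LK38 and 0.17 under LK56 (SE 0.06), therefore have an SE that rests partly on identical values. All LK35 and LK38 arrays lay below the 3 DMSO arrays and all LK56 arrays above them, the LK56 change being smaller than the shift of the brighter probe sets (-0.12 after centering each array on its median).

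*ilys-5*, a gene of the invertebrate-type lysozyme family, was lower with LK34, LK35 and LK38 and higher with LK32 by all of its 3 probe sets. On 194255_x_at the intensities were 2363, 1944 and 2288 with LK34, 2612, 2987 and 1901 with LK35, and 2721, 1983 and 2716 with LK38. They were 7171, 7089 and 7849 with LK32, and 5786, 7070.3 and 5351 with LK56, against 4876, 5666 and 4822 with DMSO. The 9 arrays of LK34, LK35 and LK38 ended at 2987, the 9 others began at 4822, and every LK32 array lay above every LK56 and DMSO array, though LK32 B and LK56 B nearly met. On 172400_x_at they were 2289.5, 1814 and 2504 with LK34, 3105, 3039 and 2020 with LK35, and 2688, 2115 and 2723 with LK38. They were 6817, 7029.6 and 8151 with LK32, and 5332, 6161 and 5157 with LK56, against 5349, 4852 and 4060.3 with DMSO. All LK32 arrays exceeded the other 15 arrays here. On 173051_s_at they were 1884, 1399 and 2284 with LK34, 3212, 2687 and 1922 with LK35, and 2191, 1760.1 and 2789.7 with LK38. They were 6566, 5067 and 7456 with LK32, and 4860.5, 4886 and 4225 with LK56, against 4194, 3492 and 3446 with DMSO. The gap was narrowest on this probe set, between LK35 A at 3212 and DMSO C at 3446.

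For *ilys-5*, changes on 194255_x_at were 0.53 under LK32, -1.22 under LK34, -1.06 under LK35, -1.06 under LK38 and 0.24 under LK56 (SE 0.17), and calls were made with LK34, LK35 and LK38. On 172400_x_at they were 0.63 under LK32, -1.11 under LK34, -0.82 under LK35, -0.92 under LK38 and 0.23 under LK56 (SE 0.18), called with LK34 alone. On 173051_s_at they were 0.77 under LK32, -1.02 under LK34, -0.53 under LK35, -0.74 under LK38 and 0.33 under LK56 (SE 0.23), again called with LK34 alone. The probe sets thus ran from -1.22 to -1.02 with LK34, from -1.06 to -0.53 with LK35 and from -1.06 to -0.74 with LK38, so that the size of the decrease with LK35 depends on the probes read. Of the calls of 194255_x_at, that with LK35 ended without LK35 C (-0.87) or DMSO B (-0.98) and that with LK38 ended without LK38 B (-0.91) or DMSO B (-0.99). The call of 172400_x_at ended without LK34 B (-0.98), and that of 173051_s_at without LK34 A (-1.05), LK34 B (-0.83), DMSO A (-0.93), DMSO B (-1.06) or DMSO C (-1.07). With LK32 the difference of 0.53 to 0.77 was not called on any probe set, and was 0.33 to 0.57 after centering each array on its median. Suffixes _x_ and _s_ mark probe sets whose probes may also match other transcripts, and which transcripts these are was not examined here.

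**Figure D2:**
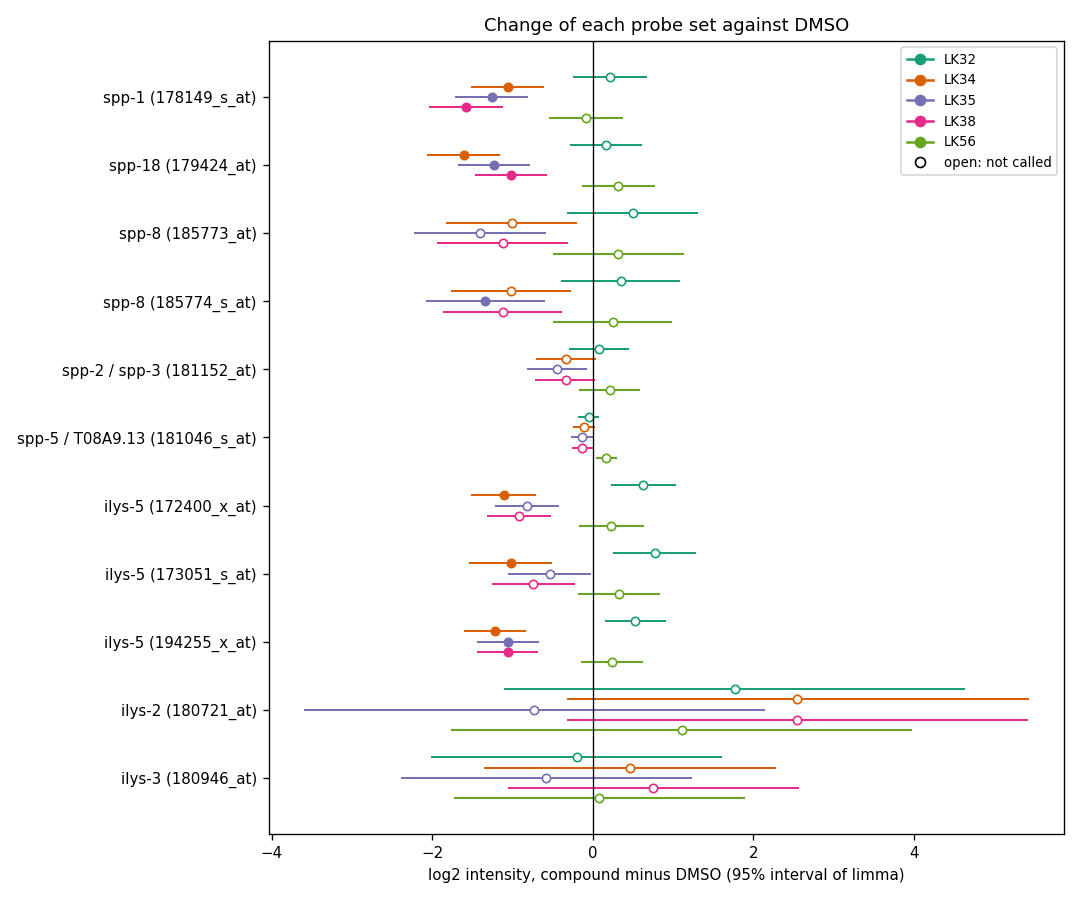
Change of log2 intensity against DMSO (x axis; point and 95% interval of limma) for the same 11 probe sets (y axis) with each of the 5 compounds, where a filled point was called (adjusted p under 0.05 and at least 2-fold) and an open one was not. Intervals of spp-1 and spp-18 with LK34, LK35 and LK38 lie below 0, those of ilys-2 reach from -3.59 to 5.42, and no point above 0 was called.

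*ilys-2* and *ilys-3* did not share this pattern. *ilys-2* (180721_at) read 701, 489 and 161 with LK34, 7.92, 273 and 27.7 with LK35, and 1474, 872 and 42.7 with LK38. It read 256, 166 and 256 with LK32, and 169.5, 156 and 104 with LK56, against 75, 82.9 and 43.8 with DMSO. LK38 A and B and LK34 A and B were the 4 highest of all 18 arrays, and LK35 A was the lowest, while LK38 C lay just below the lowest DMSO array. The arrays of 1 group differed up to 34.4-fold with LK35, 34.5-fold with LK38 and 4.34-fold with LK34, against 1.54-fold with LK32, 1.62-fold with LK56 and 1.89-fold with DMSO. The changes, 1.77 under LK32, 2.55 under LK34, -0.73 under LK35, 2.55 under LK38 and 1.11 under LK56, carried an SE of 1.32 and were not called, although every LK32, LK34 and LK56 array lay above every DMSO array. The SE is pooled over all groups, so for LK32 and LK56 too it includes the wide spread with LK35 and LK38. The change of *ilys-2* with LK35 turned to 0.42 without LK35 A, the array at 7.92, and was -2.13 without LK35 B, and that with LK38 was 4.13 without LK38 C and 1.57 without LK38 A. With LK34 it lay between 2.12 and 3.17 without 1 of the LK34 arrays.

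*ilys-3* (180946_at), the gene whose product works on ingested bacteria, read 1345, 739 and 321 with LK34, 202, 904 and 201 with LK35, and 2038, 1457 and 196 with LK38. It read 524, 359 and 427 with LK32, and 480.4, 749.9 and 398 with LK56, against 559, 569 and 383 with DMSO. LK38 A and B, LK34 A and LK35 B were the highest arrays, and LK38 C, LK35 C and LK35 A the lowest, all 3 below every DMSO array. The spread within a group was 4.50-fold with LK35, 10.4-fold with LK38 and 4.19-fold with LK34, against 1.46-fold with LK32, 1.88-fold with LK56 and 1.49-fold with DMSO. Changes were -0.20 under LK32, 0.46 under LK34, -0.58 under LK35, 0.75 under LK38 and 0.08 under LK56 (SE 0.83, again pooled over all groups), with 0 calls. Single arrays decided these values: the change of *ilys-3* with LK34 was -0.03 without LK34 A and 1.01 without LK34 C, that with LK35 was -1.30 without LK35 B, -0.22 without LK35 A and -0.21 without LK35 C, and that with LK38 was 1.80 without LK38 C, 0.35 without LK38 B and 0.11 without LK38 A. The small change with LK56 turned to -0.18 without LK56 B and to -0.11 without DMSO C. None of these was called.

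The 2 neighboring genes moved together from array to array. Over the 18 arrays their log2 intensities correlated with r = 0.87, and after the mean of each group was removed with r = 0.94. In 14 of 18 arrays both genes had the same rank within the group of 3. This is a description over arrays that share the normalization and, within a group, the treatment. Over the other 9 probe sets, ties counted for both, LK35 B and LK38 A, the highest arrays of their groups for both genes, were each the highest for 7 and LK34 A for 5. LK32 A, also the highest of its group for both genes, was the highest for 1, while LK32 C was the highest for 8 and LK32 B the lowest for 7. DMSO B, the highest of its group for both genes as well, was the highest for 3. LK34 C, LK38 C, LK56 C and DMSO C were the lowest of their groups for both genes. LK34 C and LK38 C were each the lowest for 6, LK56 C for 5 and DMSO C for 4. Whether the condition of the worms, the RNA or the array differed on these arrays was not tested.

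**Figure D3:**
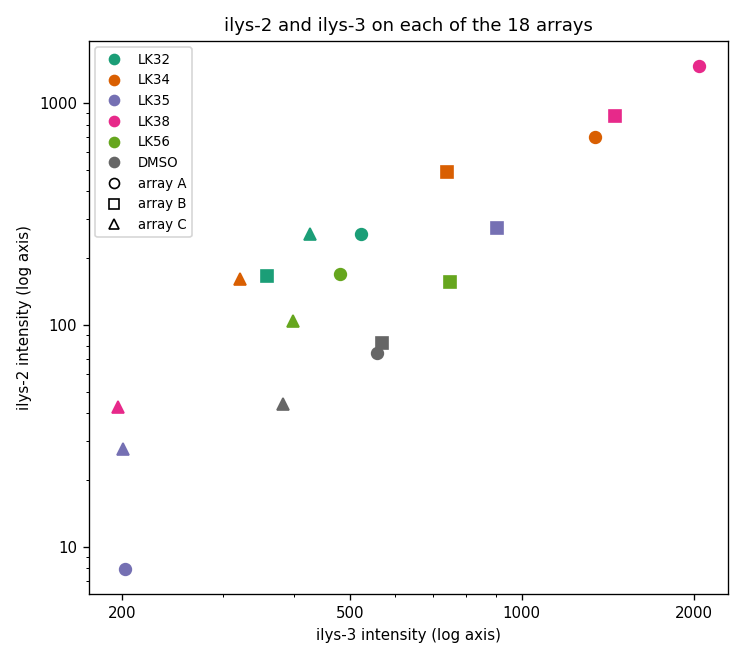
Intensity of ilys-2 (y axis, log) against that of ilys-3 (x axis, log) on each of the 18 arrays, colored by condition and shaped by array letter. The arrays with LK34, LK35 and LK38 span the plot from LK35 A (7.92 for ilys-2) to LK38 A (1474), and the DMSO arrays lie between 43.8 and 82.9.

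Counted over the 12 probe sets, 0 were called lower under LK32, 5 under LK34, 4 under LK35, 3 under LK38 and 0 under LK56, where 0%, 0.812%, 1.15%, 0.75% and 0.0133% of all 22548 probe sets were called lower. No probe set of these genes was called higher with any compound by limma (background 0.696% under LK32, 1.49% under LK34, 0.993% under LK35, 1.57% under LK38 and 0.514% under LK56), and at an unadjusted p under 0.05 there were 3 higher with LK32, 1 higher with LK56 and 0 higher with the others, and 0 lower with LK32 and LK56. The genes were chosen on these comparisons, and nothing is read from their counts. The share of all probe sets at an unadjusted p under 0.05 was not computed. Counts at that threshold, here and for the pairs and lists below, therefore have no background to be read against. The probe sets with all 3 arrays below every DMSO array numbered 8, 9 and 8 with LK34, LK35 and LK38 and 0 with LK32 and LK56 (over all probe sets 6.39%, 6.98%, 6.48%, 1.67% and 0.674%). Those with all 3 arrays above every DMSO array numbered 8 with LK32, 1 with LK34, 0 with LK35 and LK38, and 5 with LK56 (8.73%, 10.2%, 8.36%, 8.97% and 14.7%). The median change of the 12 was 0.28, -1.01, -0.78, -0.83 and 0.23 for LK32, LK34, LK35, LK38 and LK56, beside a median of 0 over all probe sets in each. Of all probe sets, 8162 lay at the floor on every array and could show no change. Over the brighter probe sets the median was 0.12, 0.06, 0.04, 0.05 and 0.235 in the same order. A fit on the arrays of 1 compound and DMSO alone, with fewer arrays to estimate the spread, kept 2 of the LK34 calls (*spp-18* and one *ilys-5* probe set) and 0 of those with LK35 or LK38.

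Compounds were also compared directly at the same dose and time, in the 4 pairs LK35 and LK38, LK34 and LK35, LK34 and LK38, and LK32 and LK56, with p adjusted over all probe sets of the 4 pairs together. Limma called 0 of the 12 probe sets in any pair (adjusted p from 0.41 to 1), where over all probe sets 0% were called higher and 0.191% lower for LK35 minus LK38, 0.0931% and 0.00443% for LK34 minus LK35, 0.0798% and 0.146% for LK34 minus LK38, and 0.0887% and 0.129% for LK32 minus LK56. At an unadjusted p under 0.05, 1 was lower with LK35 than LK38, 1 higher with LK34 than LK35, 1 higher and 1 lower with LK34 than LK38, and 1 higher and 1 lower with LK32 than LK56. The difference of *spp-1* was 0.32 (95% interval -0.13 to 0.77) for LK35 minus LK38 and 0.52 (95% interval 0.07 to 0.96) for LK34 minus LK38. That of *spp-18* was -0.21 (95% interval -0.65 to 0.23) and -0.59 (95% interval -1.03 to -0.15), in the opposite direction. For *ilys-5* (194255_x_at) it was 0.01 (95% interval -0.37 to 0.38) and -0.16 (95% interval -0.53 to 0.21). The intervals leave room for differences of about this size between compounds in either gene, and a p that misses the threshold does not make them alike. The widest was *ilys-2*, -3.28 (95% interval -6.14 to -0.42) for LK35 minus LK38, where the arrays of both compounds overlapped.

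The test bears on the other genes of both families, although their lists too were drawn up with results of these arrays known. Of 20 other probe sets of saposin-like genes (19 genes), 5 lay at the floor on all arrays, and with LK32, LK34, LK35 and LK56 limma called 0 of the 20 (at an unadjusted p under 0.05, 5 higher with LK32, 1 lower with LK34, 1 higher and 4 lower with LK35, and 2 higher with LK56). *spp-12*, whose product is made in pharyngeal neurons, was the only call, with LK38. It read 6.92, 16.7 and 11.2 with LK38, and between 4.61 and 5.49 on all other arrays, so that its rise (1.23, SE 0.21, adjusted p = 0.0055 by limma) is one from the floor to just above it. The call ended without LK38 B (0.92) and with an offset of 16 (0.40). *spp-12* was also the only one of these probe sets called in a pair, lower with LK35 than LK38 (-1.24, adjusted p = 0.040 by limma). *spp-10*, an ortholog of human prosaposin and a near neighbor of *spp-8* on chromosome IV, changed by -0.24 to -0.41 with LK34, -0.43 to -0.61 with LK35 and -0.09 to -0.35 with LK38 over its 3 probe sets, 0 of them called. *spp-4*, between *spp-6* and *spp-5* on chromosome X, read 0.16, 0.66 and 0.43 with the same compounds as a log2 change, not called either.

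Among the invertebrate-type lysozymes outside the set, *ilys-1* and *ilys-6* lay at the floor on all arrays, and *ilys-4* (180840_at) was measured. It read 116, 116 and 99.2 with LK34, 18.2, 116 and 61.3 with LK35, and 146, 129.7 and 67.9 with LK38. It read 436, 339.5 and 571 with LK32, and 235, 233 and 184 with LK56, against 168, 167 and 198 with DMSO. All LK32 arrays lay above and all LK34, LK35 and LK38 arrays below the 3 DMSO arrays, the arrangement also seen for *ilys-5*. The log2 change was 1.31 under LK32, -0.68 under LK34, -1.81 under LK35, -0.70 under LK38 and 0.29 under LK56 (SE 0.51), and limma did not call it (adjusted p = 0.085 with LK35, the smallest). LK34 A, LK34 B and LK35 B have the same reading to the digits given, so this SE too may rest partly on repeated values. Without LK35 B, whose 116 is the highest of its group, the change of *ilys-4* with LK35 was -2.40 and was called, and without LK35 A, the lowest at 18.2, it was -1.07 and was not.

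**Figure D4:**
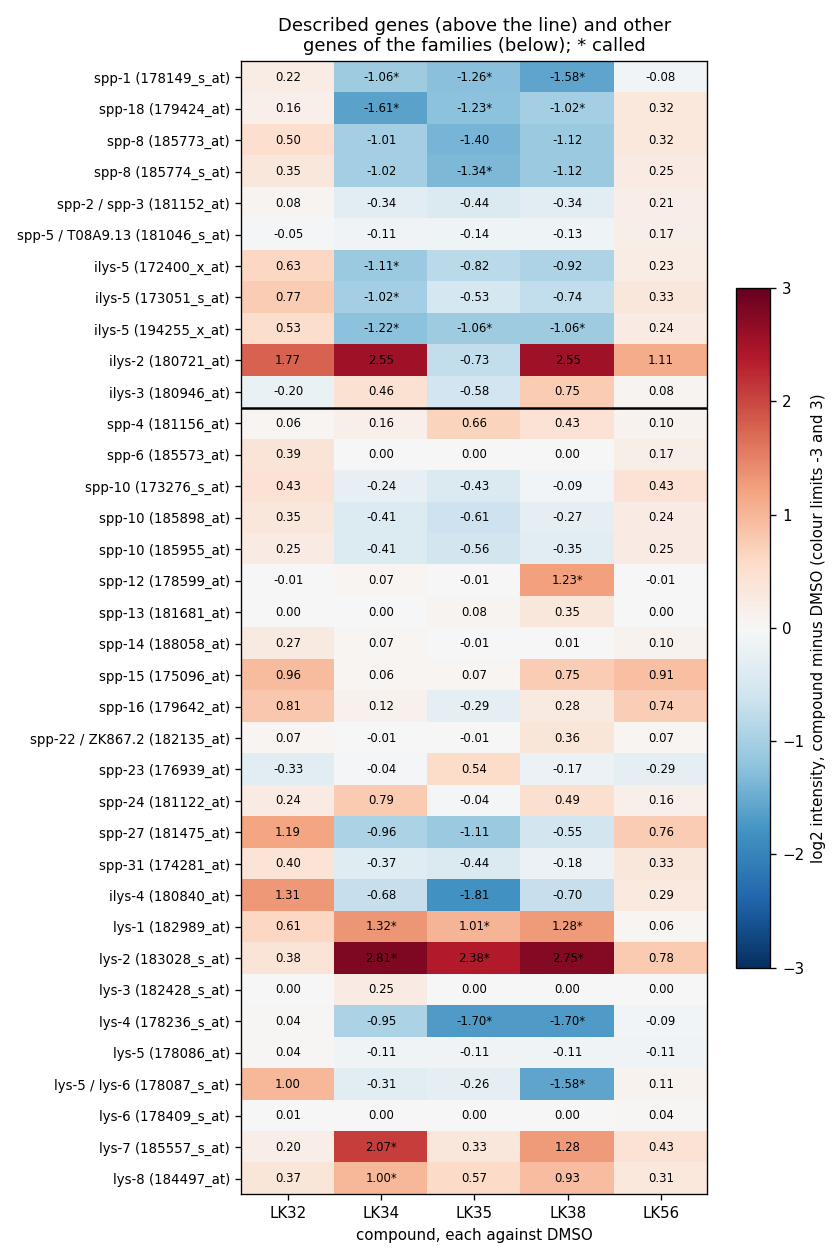
Log2 change against DMSO (color and printed value, limits -3 and 3) with each compound (x axis) for the described probe sets (above the line) and the measured probe sets of the other spp, ilys and lys genes (below it); an asterisk marks a call at an adjusted p under 0.05 and at least 2-fold. Below the line calls lie at spp-12 and at 6 lys probe sets, and lys-1 and lys-2 are higher where spp-1, spp-18 and ilys-5 are lower.

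Lysozymes of the *lys* genes, a separate family whose products also cut bacterial walls, went both ways on the same arrays. Of 11 probe sets, 4 rose with LK34, LK35 raised 2 and lowered 1, LK38 raised 2 and lowered 2, and limma made 0 calls with LK32 and LK56 (2 and 1 higher at an unadjusted p under 0.05). Over all probe sets 0.696%, 1.49%, 0.993%, 1.57% and 0.514% were called higher with LK32, LK34, LK35, LK38 and LK56. Called lower were 0%, 0.812%, 1.15%, 0.75% and 0.0133% in that order, and these shares apply to the lists below too. *lys-2* (183028_s_at) rose on all 9 arrays, to 7559 ± 1033 with LK34, 5764 ± 1742 with LK35 and 7306 ± 1101 with LK38, against 1079.9 ± 138 with DMSO (mean ± SD, n = 3 each), and the calls remained whichever array was left out and in fits of each compound and DMSO alone, where all other *lys* calls ended. *lys-1* rose by 1.32, 1.01 and 1.28 with the 3 compounds, a call that with LK35 ended without LK35 B (0.79), LK35 C (1.07), DMSO B (0.91) or DMSO C (0.99). *lys-7* rose by 2.07 and *lys-8* by 1.0 with LK34, and the *lys-8* call ended without LK34 A (0.84), LK34 B (1.0), DMSO A (1.03), DMSO B (0.98) or DMSO C (1.01). *lys-4* fell by 1.70 with LK35 and LK38, and both calls ended without LK32 A or LK34 B (-1.70 each) or any DMSO array (-1.60 to -1.75), and without LK35 A (-1.46) or C (-1.53) or without LK38 B (-1.89) or C (-1.28). The dim probe set shared by *lys-5* and *lys-6* fell by 1.58 with LK38, a call that ended without LK38 A (-1.60), LK38 B (-1.49), DMSO A (-1.61) or DMSO C (-1.39), or with an offset of 16 (-0.73). Of 5 probe sets of the antibacterial factors *abf-1* to *abf-5*, 3 lay at the floor and limma called 0 (1 higher with LK38 and 1 with LK56 at an unadjusted p under 0.05).

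Markers of tissues moved beside these genes, and their part in the result was not tested. In RNA of whole animals, fewer cells of a type and less RNA per cell cannot be told apart. Of 14 probe sets of 10 genes of the intestine, the organ in which SPP-1, SPP-5 and ILYS-3 work, 1 lay at the floor. *ifb-2*, an intermediate filament of the intestinal terminal web, fell by 1.77 with LK34, 2.04 with LK35 and 1.55 with LK38 (limma adjusted p = 0.00047, 0.00015 and 0.0012), whichever array was left out, although the calls with LK35 and LK38 ended in a fit of the compound and DMSO arrays alone (limma adjusted p = 0.052 and 0.10). Of the other calls in this list, 0 remained in such fits. *pept-1*, the intestinal peptide transporter, fell by 1.62, 1.97 and 1.58, calls that ended without any LK34 array (-1.49 to -1.76) or LK38 array (-1.40 to -1.74) for its own compound, without LK35 A or C (-1.96 each), and without DMSO A or C with all 3 compounds (-1.20 to -1.96). They ended also with LK34 and LK38 in most fits without an array of another compound. An offset of 16 ended all 3 (-1.04, -1.21 and -1.02 with LK34, LK35 and LK38). With LK32 and LK56 *pept-1* rose by 1.67 and 1.78, which was not called. Median centering (1.47 and 1.49), brighter probe sets only and array weights did call these rises. *elt-7*, an intestinal GATA factor, fell by 1.23 with LK35 and rose by 1.22 with LK32, and *act-5*, the actin of microvilli, rose by 1.31 with LK38, a call that ended without LK38 A (1.11) or DMSO C (1.24). At an unadjusted p under 0.05, 5 of the 14 were higher with LK32, 2 higher and 4 lower with LK34, 1 higher and 6 lower with LK35, 3 higher and 5 lower with LK38, and 4 higher with LK56. Among those higher without reaching 2-fold was *cpr-6*, a cysteine protease gene, at 8208 ± 170.8 with LK34, 9117 ± 953.5 with LK35 and 8046 ± 582.5 with LK38, against 6146 ± 427.1 with DMSO (mean ± SD, n = 3 each; limma adjusted p = 0.017, 0.0024 and 0.025). Summed over the list the intensity was 51510.2 to 56924 under LK32, 34410.3 to 44274 under LK34, 30483 to 37372 under LK35, 32170.1 to 42901 under LK38 and 48930 to 52870.4 under LK56, against 43250.4 to 48556 with DMSO. Most of this sum is *asp-1*, an intestinal aspartic protease, which was not called, and without it the sum was 14201 to 16552 under LK32, 10315 to 11498 under LK34, 10138 to 11648 under LK35, 10772 to 12445 under LK38 and 11920 to 12732.5 under LK56, against 9695 to 10472 with DMSO. Without it the sums with LK34, LK35 and LK38 overlapped or exceeded those with DMSO, but most of what then remained was *cpr-6*, higher with these compounds. The median change of the 14 probe sets was 0.47 under LK32, -0.31 under LK34, -0.4 under LK35, -0.23 under LK38 and 0.31 under LK56. The 12 described probe sets together came to 86157 to 99445 under LK32, 45574 to 54977 under LK34, 43928 to 57624.5 under LK35, 43128 to 61004 under LK38 and 86299 to 92294 under LK56, against 75785 to 78394 with DMSO.

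Some of the other tissues differed between the same groups of arrays. The summed level of 13 body wall muscle probe sets was 30939 to 35505 under LK32, 14826 to 22668 under LK34, 12698.5 to 21460 under LK35, 14820.2 to 31066 under LK38 and 29539 to 35006 under LK56, against 25167 to 28334 with DMSO, and 1 of them, a probe set of *unc-15* (paramyosin), was called lower with LK35 (-1.08), a call that ended in 12 of 18 fits without 1 array. The muscle sums with LK38 took in the DMSO range. At an unadjusted p under 0.05, 3 of the 13 were lower with LK34, 7 with LK35 and 0 with LK38. Those higher numbered 3 with LK32 and 1 with LK56. Of 32 *msp* probe sets, for the major sperm proteins, 1 lay at the floor on all arrays. Limma called 31 lower with LK34, 31 with LK35 and 30 with LK38 (medians -2.21, -2.46 and -2.04). With LK32 and LK56 it called 0, and none there passed an unadjusted p under 0.05. Most of these probe sets carry the suffix _x_ and several are annotated to the same genes, so they are not separate readings. Of 10 oocyte probe sets limma called 0, with 7, 8 and 5 higher at an unadjusted p under 0.05 with LK34, LK35 and LK38. The pharynx (13 probe sets, 6 at the floor) and epidermis (7) gave 0 calls with any compound, with at most 1 at an unadjusted p under 0.05. How these shifts bear on *spp-1*, *spp-18*, *spp-8* and *ilys-5* was not tested.

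Regulators of intestinal defense gave a single call. Of 30 probe sets of 15 such genes, among them the p38 kinase gene *pmk-1* and the transcription factor genes *atf-7*, *daf-16*, *skn-1* and *hlh-30*, 4 lay at the floor and limma called 1, *pqm-1* with LK35 (-1.25, SE 0.19, adjusted p = 0.0028), whichever array was left out, a call that ended with the LK35 and DMSO arrays alone (limma adjusted p = 0.14). At an unadjusted p under 0.05 there were 7 higher under LK32, 1 higher and 2 lower under LK34, 2 higher and 3 lower under LK35, 1 higher and 2 lower under LK38, and 1 higher under LK56. *pqm-1*, a zinc finger factor, read 354, 294 and 308 with LK34, 182, 314 and 209 with LK35, and 417, 390.5 and 311 with LK38. It read 889, 623 and 747 with LK32, and 614, 742 and 593 with LK56, against 601, 521 and 509.7 with DMSO, the 9 arrays of LK34, LK35 and LK38 again below all others.

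The genes outside the families whose pattern over the 18 arrays was most like that of a described gene were sought among 8577 probe sets of 1 gene in the brighter range, by the root mean square difference of mean-centered log2 intensity. For *spp-1* they were B0228.7 (0.22), *adah-1* (0.25) and M163.1 (0.26), and *spp-1* itself varied by a root mean square of 0.73. For *spp-8* (185774_s_at) they were *adah-1* (0.15), M163.1 (0.19) and C32F10.4 (0.21), and for *spp-18* *col-139* (0.24), *pgrn-1* (0.27) and *hpo-15* (0.28). For *ilys-5*, *cest-25* came first on 172400_x_at (0.24) and 194255_x_at (0.22) and C34D10.1 on 173051_s_at (0.29). *adah-1* and M163.1 thus stood among the nearest of both *spp-1* and *spp-8*, with changes of -0.98 and -1.06 with LK34, -1.26 and -1.38 with LK35, and -1.11 and -1.12 with LK38. These are the smallest differences among many, over arrays that share their groups.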

How the data were processed

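RNA of whole worms was measured on 18 Affymetrix arrays. The authors summarized them with GCRMA (per the submitters' processing notes), and what they deposited are linear intensities from 4.605 to 58200.7. The version, the settings and the genome build of the annotation are not given in the sources used here. GCRMA corrects background by probe sequence and normalizes arrays to each other, which can hide a shift of the whole transcriptome. Array medians over the brighter probe sets still ran from 356.8 (LK35 A) to 544.7 (LK56 A). No column was left out.

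The table has 22625 probe sets, of which 77 are controls and 22548 were tested. The platform annotation gives 20766 of them 1 gene, 887 several and 895 none. The RefSeq gene table served for names and gene order only. Log2 intensities, with no offset, went into a linear model in limma 3.58.1 (R 4.3.3), with 1 mean per group and a common spread from every array (residual degrees of freedom 12, prior 0.332). P values were adjusted by Benjamini-Hochberg over all probe sets of a comparison, or of the 4 pairs together. SE and 95% intervals come from this model. Floor means within 0.1% of the lowest value. The number of arrays limits the precision.

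The 9 genes and all gene lists (other saposin-like, invertebrate-type lysozyme, *lys* and *abf* genes, intestine, muscle, sperm, oocyte, pharynx, epidermis and regulators) were chosen with earlier results of these data known. Every probe set of the 9 genes is described, and of the other lists every called probe set outside sperm. *ilys-4*, *spp-10*, *spp-4*, *cpr-6* and *asp-1* were named with their values in view. The model was tested on simulated data over 22548 probe sets, with every array drawn around the DMSO means with normal noise. Changes were planted under LK34, only in probe sets bright with DMSO whose spread was above 0. Of these the model recovered 85 of 100 changes of 1.5 on the log2 scale and 99 of 100 of 3, 0 in the wrong direction. It called 0 unchanged probe sets, but those without spread could not be called. Recovery in dim probe sets, such as that of *ilys-2*, was not tested.

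Alternatives were quantile normalization, centering on the median, an offset of 16, brighter probe sets only, array weights, a trended robust prior, a replicate block, other thresholds, each compound with DMSO alone, and leaving out each array. One more, without the 3 arrays (LK35 A, LK38 C and LK32 C) with the lowest mean correlation within their group, was added after seeing the data. Matplotlib 3.10.9 (Python 3.11.15) drew the figures.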

Additional observations from a re-analysis of the deposited data

How the results depend on the processing

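Counts below are of the 12 probe sets of the described genes and the 23 of the other saposin-like and invertebrate-type lysozyme genes, and no called change reversed its sign under any alternative run. Probe sets called lower with LK34, 5 in the report, numbered 7 after centering on the median, 6 among brighter probe sets only, 4 under array weights, 3 at an adjusted p under 0.01, 2 with the LK34 and DMSO arrays alone, and 3 to 5 with 1 array left out, the lowest without LK34 B. With LK35 they numbered 4 in the report, 5 after quantile normalization or centering on the median, among brighter probe sets only and under array weights, 0 with the LK35 and DMSO arrays alone, and 2 to 5 with 1 array left out, the lowest without LK35 C or DMSO B. With LK38 they numbered 3 in the report, 6 after centering on the median, 5 among brighter probe sets only, 0 with the LK38 and DMSO arrays alone, and 1 to 4 with 1 array left out, the lowest without DMSO B. *ilys-2* became the 1 probe set called higher with LK34 (2.76) and LK38 (3.69) under array weights, and with LK38 (4.13) without LK35 A, LK38 C and LK32 C, an exclusion chosen after seeing the data. Among the other genes, *ilys-4* was the 1 called lower with LK35 under quantile normalization (-1.84), median centering (-1.83), brighter probe sets only (-1.81), array weights (-1.38), without LK35 B, and without those 3 arrays (-1.07), in a range of 0 to 1 with 1 array left out. The call of *spp-12* with LK38, 1 in the report, became 0 with an offset of 16 and with the LK38 and DMSO arrays alone. The count ranged from 0 to 1 with 1 array left out, and was 2 without those 3 arrays. Among brighter probe sets only it was 0, but *spp-12* is too dim to be one of these and was not fitted there. Quantile normalization and median centering ended the calls of *lys-1* with LK35 (0.97 and 0.98) and *lys-8* with LK34 (0.93 and 0.87). The letters A to C were not taken as pairs, since the deviations of same-lettered arrays from their group means correlated with those of DMSO between -0.29 and 0.26. With the replicate block, 5, 3 and 3 described probe sets were called lower with LK34, LK35 and LK38, the difference being *spp-8* with LK35, and the calls of *unc-15* with LK35 and *pept-1* with LK38 ended too. With 3 arrays a group and values that repeat or lie at the floor, small differences were not measurable, and the cause of the changes above was not tested.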
